A study of Mus musculus with 9 samples.

Results

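The genes described here encode the proteins of the mitochondrial ribosome. They were taken by name, as every gene whose symbol in the platform annotation starts with Mrpl or Mrps followed by a digit, and probes were kept where the detection p was under 0.05 on 4 or more arrays. The rule gave 72 of the 10096 genes tested, read by 109 probes, all of which passed the detection filter. The annotation named only probes in the authors' normalized table. With no detection filter the members were also 72, of 10119 genes. RefSeq lists 78 protein-coding genes of these names, and the remaining 6, Mrpl19, Mrpl32, Mrpl41, Mrpl45, Mrps14 and Mrps36, were not analysed here. Of the 72, 47 belong to the large subunit and 25 to the small one, with Mrps30 and Mrps18a placed in the large subunit by present structural assignment.

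RNA was extracted from the tumour environment of C57/Bl6 mice aged 8 weeks, 14 days after inoculation with B16, a mouse melanoma line, and hybridised to Illumina bead arrays. The PC61 group held 4 arrays from mice depleted of regulatory T cells with PC61, an antibody against the interleukin-2 receptor chain CD25, and the PBS group held 5 arrays from mice given PBS, which carry the same tumour. The labels number the replicates within each group without saying whether each is a separate animal, so every p-value refers to the variation among these arrays, which may be technical. Each array read a whole piece of tissue, in which fewer cells of a type and less RNA per cell cannot be told apart.

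The mitochondrial ribosome translates the few messenger RNAs of mitochondrial DNA, all of which encode subunits of the oxidative phosphorylation complexes. Its RNAs are made inside the organelle, while its proteins are encoded in the nucleus, made on cytosolic ribosomes and imported. Many of these proteins are counterparts of bacterial ribosomal proteins, and others occur only in mitochondria. Factors known to act at promoters of such genes include NRF1, the ETS factor GABP and YY1, helped by coactivators of the PGC family.

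Short stretches of members' promoters are printed here to show the motifs searched in these genes. They come from RefSeq (GRCm38.p6), are written 5′ to 3′ on the gene's strand, and have the motif in capitals. NRF1 was searched as GCGCA, then any base, then GCGC, ETS as CCGGAAG and YY1 as AAGATGGC, each on both strands, in the 300 bases from 250 before to 50 after the transcription start. In Mrpl12 the capitals are the NRF1 motif read on the opposite strand. The Mrpl12 stretch lies at chr11:120484546-120484635 on the plus strand, Mrpl39 at chr16:84735290-84735379 on the minus strand, Mrpl51 at chr6:125192100-125192189 on the plus strand, Mrpl22 at chr11:58171574-58171663 on the plus strand and Mrps18a at chr17:46110914-46111003 on the plus strand, all of them upstream of the start.
Mrpl12 (NRF1): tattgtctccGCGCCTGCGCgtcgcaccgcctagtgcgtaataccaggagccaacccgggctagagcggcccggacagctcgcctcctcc
Mrpl39 (NRF1): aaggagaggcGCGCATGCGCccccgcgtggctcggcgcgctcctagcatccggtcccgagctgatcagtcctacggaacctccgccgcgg
Mrpl51 (ETS): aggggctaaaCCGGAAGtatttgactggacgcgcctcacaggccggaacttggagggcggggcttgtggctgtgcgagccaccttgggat
Mrpl22 (ETS): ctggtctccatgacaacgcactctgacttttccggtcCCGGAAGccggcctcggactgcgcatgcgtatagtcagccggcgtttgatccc
Mrps18a (ETS): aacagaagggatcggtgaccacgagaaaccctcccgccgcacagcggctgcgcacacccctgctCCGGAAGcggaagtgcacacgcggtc

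The YY1 motif is shown for the 3 members that both held it and passed the test. It lies just after the start in each of them, at chr6:71823746-71823769 (minus strand) in Mrpl35, chr10:95501907-95501930 (minus strand) in Mrpl42 and chr19:6057724-6057747 (minus strand) in Mrpl49.
Mrpl35 (YY1): caggctgcAAGATGGCggcttcca
Mrpl42 (YY1): attgaagcAAGATGGCgagcgcgc
Mrpl49 (YY1): gaggcgccAAGATGGCagcagcgg

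Between 18572 and 20742 probes were detected per array, and the median raw intensity ran between 21.5 and 41.63. PC61 replicate 4 stood apart, with the lowest raw median and a mean correlation of 0.825 with the other arrays, against 0.889 to 0.943 for each of the rest. The 10 melanocyte markers summed to 11.98 on the log2 scale on that array, against 15.4 to 16.24 on the other PC61 arrays and 16.05 to 16.65 on the PBS arrays. Foxp3, which marks regulatory T cells, read between 8.54 and 8.89 in PC61 tumours and between 8.82 and 9.42 in PBS tumours, a log2 difference of -0.32 ± 0.18 (SE) with an adjusted p of 0.203. The members' count and median, and most named members that rest on PC61 replicate 4, are also given without it. Values by subunit class, promoter motif and cell type marker are given over all arrays.

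Mitochondrial ribosomal protein messages were mostly lower in PC61 tumours, by modest amounts. Of the 72 members, 12 fell and none rose at an adjusted p under 0.05, in a limma fit over all 10096 genes with Benjamini-Hochberg adjustment, while 60 did not pass. The 12 are 16.7% of the members. Over all genes the same rule called 11.2% lower and 15.4% higher in PC61 tumours, or 1127 lower and 1552 higher genes, and under cyclic loess normalization 858 lower and 1831 higher. Under cyclic loess 7 members fell, or 9.72%, against 8.5% of all genes. Under 75th percentile scaling 19 fell, or 26.4%, against 13.5%, and with array weights 24, or 33.3%, against 22%. The log2 fold change, PC61 over PBS throughout, was negative for 70 members, and the median was -0.45, against a median of -0.05 over all genes. With array weights 58 members were negative and 14 positive. Before adjustment, 28 members, or 38.9%, had a p under 0.05 in limma, all of them negative. Over all genes the share was 41.75%, which counts both directions and so is not a like comparison. The 60 members that did not pass had log2 fold changes between -0.86 and 0.05.

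The plot of every member on every array shows how unevenly the arrays of the PC61 group contributed. The members' median deviation from the PBS mean was -0.35, -0.01, -0.53 and -1.01 on PC61 replicates 1 to 4, against 0.07, 0.02, 0.10, 0.00 and -0.19 on PBS replicates 1 to 5. PC61 replicate 2 lay within the range of the PBS arrays, while the other PC61 arrays lay below it.

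**Figure D1:**
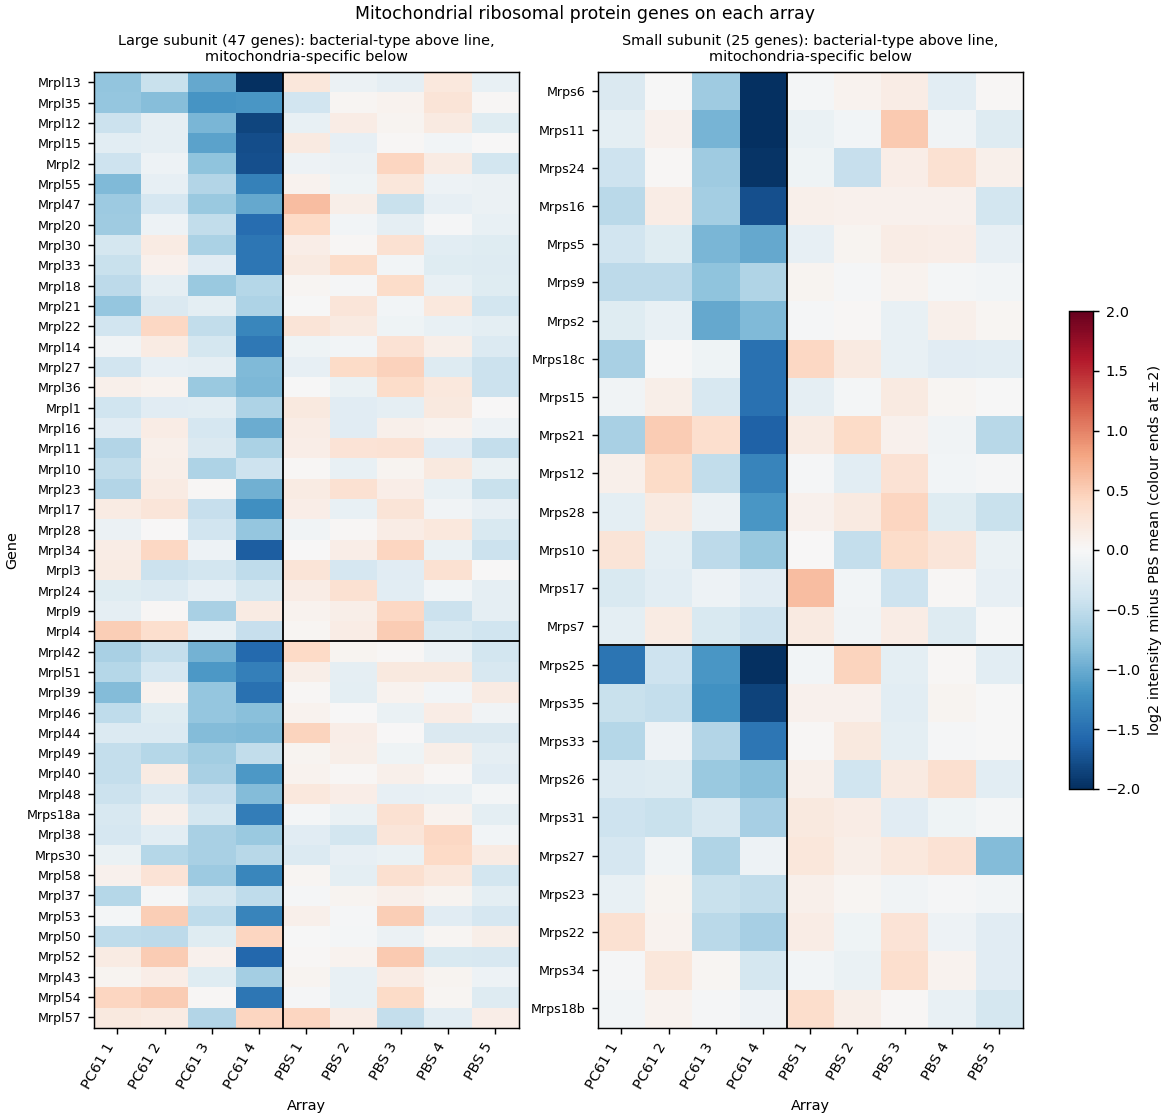
Log2 intensity of each of the 72 members (rows, ordered by log2 fold change within subunit groups) on each array (columns), as the difference from the gene's PBS mean; the colour scale ends at 2 in either direction. The column of PC61 replicate 4 is the lowest for most members, with a median of -1.01, and that of PC61 replicate 2 has a median of -0.01.

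PC61 replicate 4 held the lowest value of the 9 arrays for 57 of the 72 members, against 28.2% of all genes. Set against the mean of the other PC61 arrays, it was lower for 66 of 72 members, with a median difference of -0.68, against a median of 0.04 over all genes. The difference was widest in Mrps6 (-2.07), Mrpl52 (-1.82) and Mrps25 (-1.81), and it ran the other way in Mrps9 (0.02), Mrpl49 (0.08), Mrps27 (0.25), Mrpl9 (0.43), Mrpl57 (0.51) and Mrpl50 (0.86). The SD between PC61 arrays exceeded that between PBS arrays for 60 of 72 members, with a median SD of 0.47 in PC61 tumours and 0.23 in PBS tumours. Over all genes the median SDs were 0.39 in PC61 tumours and 0.29 in PBS tumours.

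Without PC61 replicate 4, 7 members fell, all of them among the 12, and none rose. They are 9.72% of the members, against 7.72% of all genes called lower in that fit. The members' median was then -0.30, with 64 of 72 negative. The sign of 8 members turned, none of them called. They were Mrps12, Mrps18b, Mrps21 (-0.35 over all arrays, 0.07 without), Mrps34, Mrpl34 (-0.30 and 0.16), Mrpl52, Mrpl54 (-0.12 and 0.32) and Mrpl57. The 7 were Mrps25, Mrpl35, Mrpl13, Mrps35, Mrpl42, Mrps9 and Mrpl49, and the adjusted p of the other 5 ran from 0.0542 for Mrpl51 to 0.0925 for Mrpl47. Without PC61 replicate 3, only Mrpl35 passed, against 2.24% of all genes called lower. Without PC61 replicate 2, 30 members passed, against 17.5% of all genes called lower.

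The count also moved when other single arrays were left out, by over 1.5 times for all of them but PBS replicate 3. With PC61 replicate 1 left out, 7 members passed (6.68% of all genes lower), and with PBS replicate 1 left out, 7 (7.8%). The count was 5 when PBS replicate 2 was removed (6.06%), 4 for PBS replicate 4 (4.75%) and 6 for PBS replicate 5 (4.73%), while 10 passed when PBS replicate 3 was removed (10.1%). No member rose in any of these fits. Of the called members, Mrpl42 and Mrps9 passed in 8 of the 9 fits that left out a single array, failing without PC61 replicate 3 (adjusted p = 0.0655 for Mrpl42 and 0.0602 for Mrps9). Mrps25 passed in 7, failing without PC61 replicate 3 or PBS replicate 2, and Mrpl13 in 6, failing without PC61 replicate 3, PBS replicate 4 or PBS replicate 5. Each of 3 members passed in 5. Mrps35 failed without PC61 replicate 3 or PBS replicates 2, 4 or 5, Mrpl49 without PC61 replicates 1 or 3 or PBS replicates 2 or 4, and Mrpl51 without PC61 replicates 3 or 4 or PBS replicates 1 or 4. Mrpl46 and Mrpl47 passed in 2, those without PC61 replicate 2 or PBS replicate 3, and Mrpl55 and Mrps5 in 1, that without PC61 replicate 2. The highest adjusted p among these fits was 0.118, for Mrps5, and every called member was negative in all 9.

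**Figure D2:**
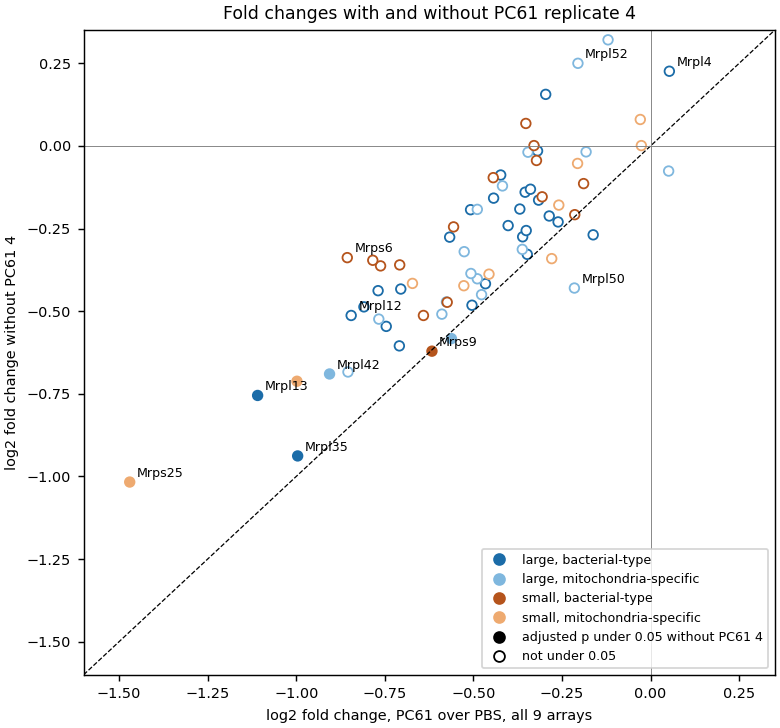
Each member's log2 fold change over all arrays (horizontal axis) and without PC61 replicate 4 (vertical axis). Filled points had an adjusted p under 0.05 in the limma fit without that array. Most points lie above the diagonal, and the median moves to -0.30 without that array, against -0.45 over all arrays.

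The small subunit contributed 4 of the 12 called members and the large subunit 8, with median log2 fold changes of -0.46 over 25 members and -0.44 over 47. Counterparts of bacterial proteins and mitochondria-specific proteins were both represented. In the large subunit, 4 of 28 bacterial-type members (14.3%, median -0.41) and 4 of 19 mitochondria-specific members (21.1%, median -0.49) fell. In the small subunit, 2 of 15 bacterial-type members (13.3%, median -0.56) and 2 of 10 mitochondria-specific members (20%, median -0.37) fell. Over all genes 11.2% were lower, and differences between these classes were not tested.

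**Figure D3:**
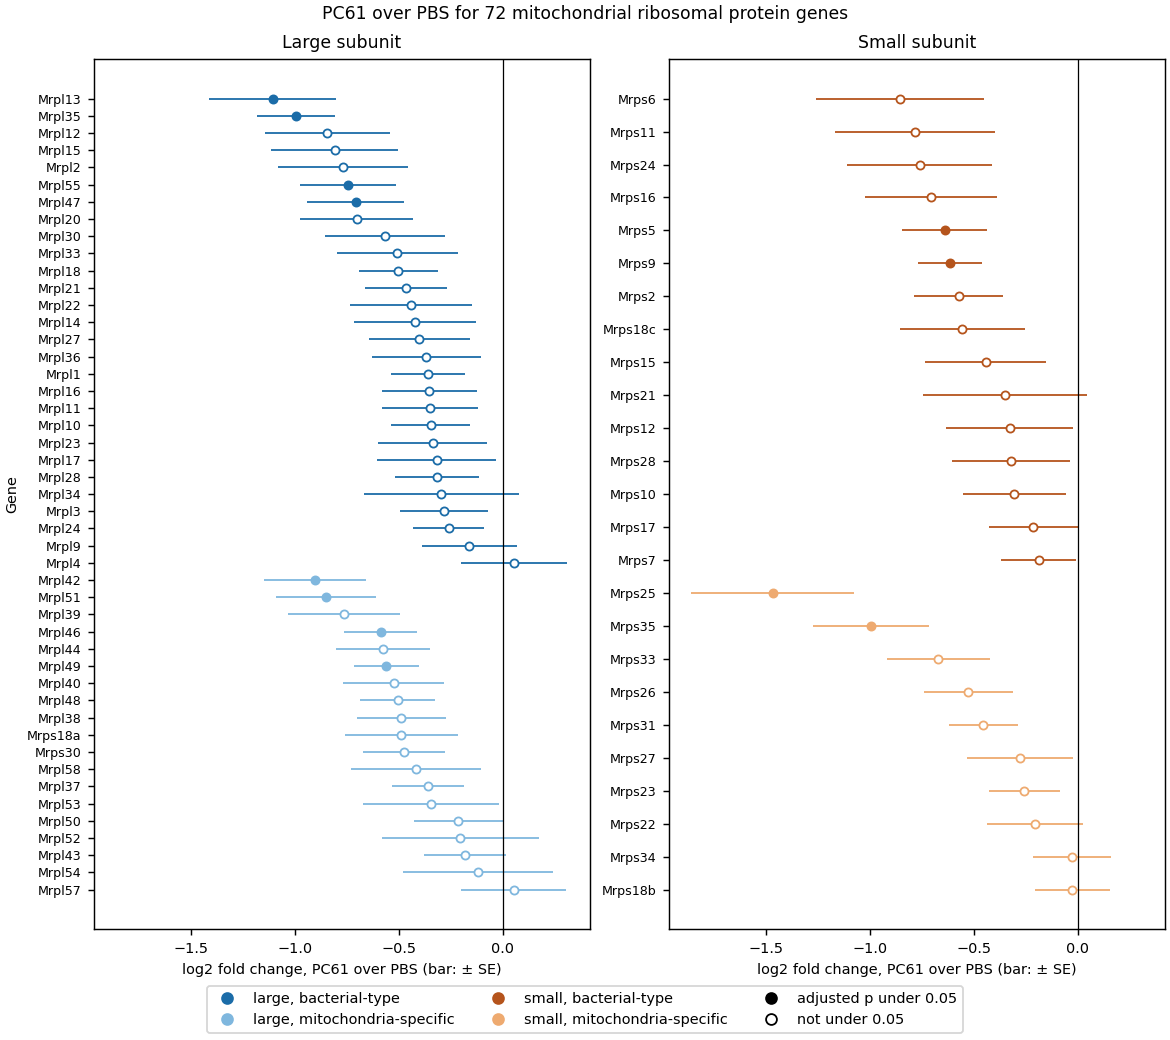
Log2 fold change, PC61 over PBS, with its standard error for each of the 72 members, coloured by bacterial-type or mitochondria-specific and grouped by subunit. The called members lie between -1.47 and -0.56, and the members that did not pass lie between -0.86 and 0.05.

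Among small-subunit proteins, the largest change was in Mrps25, a mitochondria-specific protein. Its log2 intensity was 7.28, 8.33, 7.58 and 5.92 on the PC61 arrays, against 8.69, 9.19, 8.55, 8.77 and 8.54 on the PBS arrays. All PC61 values lay below all PBS values, and PC61 replicate 4 was the lowest by more than 1 log2 unit. The log2 fold change was -1.47 ± 0.39 (SE, adjusted p = 0.0230), and its 3 probes gave -1.47, -0.85 and -0.70. Without PC61 replicate 4 it was -1.02 (adjusted p = 0.0258).

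Mrps35, another mitochondria-specific protein of the small subunit, read 9.90, 9.88, 9.13 and 8.49 in PC61 tumours, against 10.43, 10.43, 10.14, 10.40 and 10.34 in PBS tumours. The groups did not overlap, and PC61 replicates 3 and 4 were the lowest. It differed by a log2 fold change of -0.998 ± 0.28 (adjusted p = 0.0262), and -0.71 without PC61 replicate 4 (adjusted p = 0.0402).

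Mrps9, the counterpart of a bacterial small-subunit protein, was the steadiest of the called members on the PBS arrays. It read 9.10, 9.10, 8.81 and 9.02 in PC61 tumours, against 9.68, 9.60, 9.70, 9.58 and 9.56 in PBS tumours. The groups did not overlap, and PC61 replicate 4 lay among the other PC61 arrays. On the log2 scale the fold change was -0.62 ± 0.15 (adjusted p = 0.0191), and -0.62 without that array (adjusted p = 0.0286).

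Mrps5, also a bacterial-type protein, read 7.73, 7.87, 7.21 and 7.09 in PC61 tumours, against 7.95, 8.17, 8.26, 8.24 and 7.95 in PBS tumours. The highest PC61 value lay just under the lowest PBS value. PC61 over PBS, the log2 fold change was -0.64 ± 0.21 (adjusted p = 0.0410), and it did not pass without PC61 replicate 4 (-0.51, adjusted p = 0.0867).

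In the large subunit, Mrpl13, a bacterial-type protein, changed most. It read 11.42, 11.75, 11.18 and 10.03 in PC61 tumours, against 12.43, 12.09, 12.03, 12.42 and 12.06 in PBS tumours. The groups did not overlap, and PC61 replicate 4 was more than 1 log2 unit below the next PC61 array. The log2 fold change was -1.11 ± 0.31 (adjusted p = 0.0255), and -0.76 without that array (adjusted p = 0.0285). Mrps25 and Mrpl13 were the members lower by more than 2-fold, at 2.77-fold and 2.16-fold.

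Mrpl35, a bacterial-type protein, read 6.51, 6.44, 6.11 and 6.12 in PC61 tumours, against 6.90, 7.33, 7.37, 7.54 and 7.31 in PBS tumours. The PC61 arrays lay close together and below every PBS array. It differed by a log2 fold change of -0.996 ± 0.19 (adjusted p = 0.0122), and -0.94 without PC61 replicate 4 (adjusted p = 0.0185). It passed in each of the 9 fits that left out a single array, with 0.0427 as the highest adjusted p.

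Mrpl42, a mitochondria-specific protein, read 9.99, 10.17, 9.70 and 9.09 in PC61 tumours, against 11.05, 10.70, 10.67, 10.52 and 10.28 in PBS tumours. The groups did not overlap. On the log2 scale the fold change was -0.91 ± 0.25 (adjusted p = 0.0240), and -0.69 without PC61 replicate 4 (adjusted p = 0.0424).

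Mrpl49, which is mitochondria-specific, read 9.35, 9.26, 9.14 and 9.33 in PC61 tumours, against 9.88, 9.95, 9.74, 9.95 and 9.65 in PBS tumours. The groups did not overlap, and PC61 replicate 4 was not the lowest array. PC61 over PBS, the log2 fold change was -0.56 ± 0.16 (adjusted p = 0.0261), and -0.58 without that array (adjusted p = 0.0357). This is the brightest of its 4 probes, and the others gave -0.32, -0.26 and -0.31. Mrpl49 did not pass with the mean of its probes (-0.36, adjusted p = 0.125) or under cyclic loess (adjusted p = 0.0540).

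The remaining called members of the large subunit passed over all arrays and did not pass without PC61 replicate 4. Mrpl51, mitochondria-specific, read 6.81, 7.05, 6.22 and 6.01 in PC61 tumours, against 7.49, 7.20, 7.57, 7.58 and 7.05 in PBS tumours (-0.85 ± 0.24, adjusted p = 0.0269). Mrpl46, mitochondria-specific, read 9.65, 9.92, 9.39 and 9.33 in PC61 tumours, against 10.22, 10.16, 10.02, 10.30 and 10.09 in PBS tumours (-0.59 ± 0.18, adjusted p = 0.0331). In both genes the groups did not overlap, and PC61 replicate 2 was the PC61 array nearest to the PBS arrays. For Mrpl51 that array read 7.048, just under the lowest PBS value of 7.05.

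Mrpl55, bacterial-type, read 8.21, 8.93, 8.50 and 7.75 in PC61 tumours, against 9.17, 9.01, 9.32, 8.99 and 8.98 in PBS tumours (-0.75 ± 0.23, adjusted p = 0.0367). Mrpl47, bacterial-type, read 8.48, 8.88, 8.47 and 8.19 in PC61 tumours, against 9.83, 9.33, 8.78, 9.05 and 9.10 in PBS tumours (-0.71 ± 0.23, adjusted p = 0.0451). Mrpl47 was the single called member whose groups overlapped, since PC61 replicate 2 lay above PBS replicate 3. Mrpl47 did not pass with the mean of its probes (adjusted p = 0.128). Under cyclic loess, Mrpl46, Mrpl47, Mrpl55 and Mrps5 did not pass either, with adjusted p between 0.0544 for Mrpl46 and 0.0823 for Mrpl47.

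**Figure D4:**
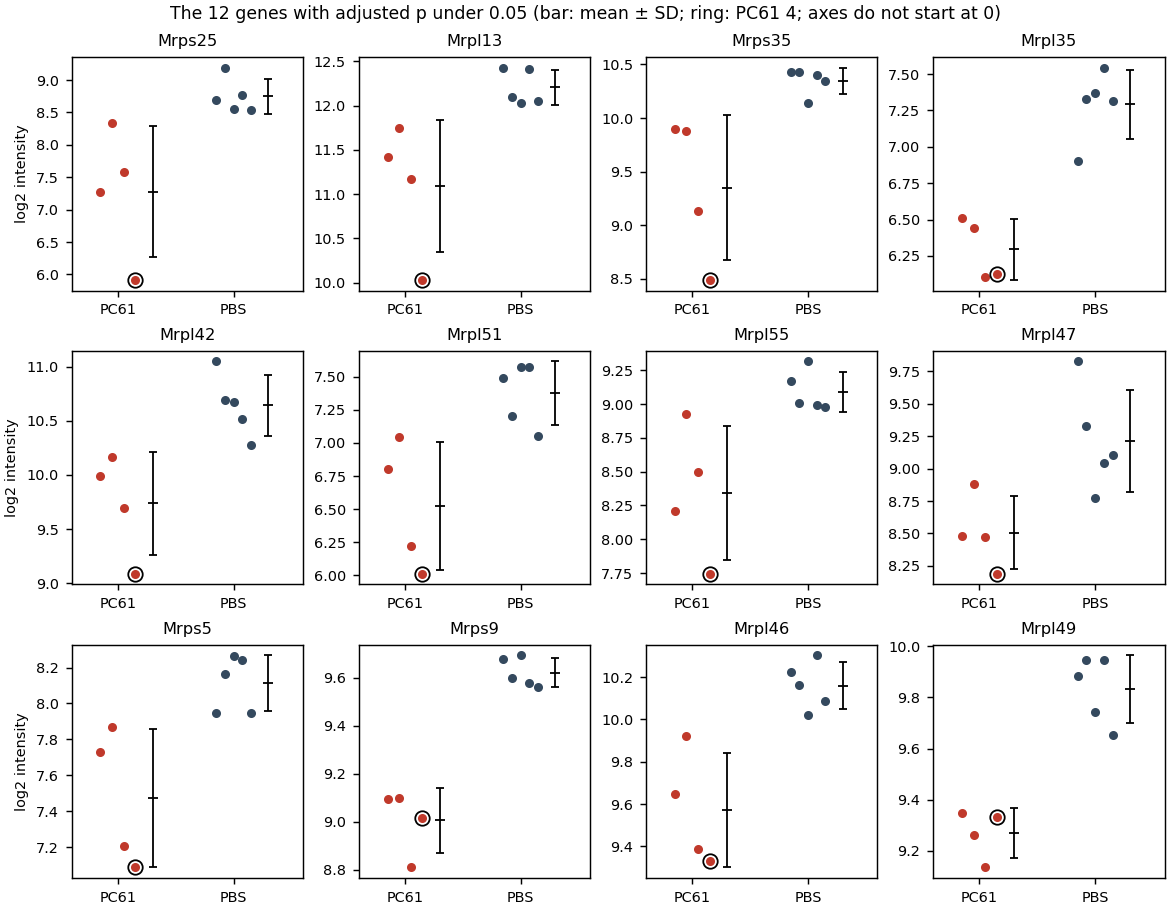
Log2 intensity of the 12 called members on each array, PC61 arrays left of PBS arrays, with the group mean ± SD beside the points and a ring around PC61 replicate 4. The groups do not overlap in 11 of the 12, the exception being Mrpl47, and PC61 replicate 4 is the lowest array in 9 of the 12.

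All PC61 values lay below all PBS values in 14 members, or 19.4%, against 9.96% of all genes. These were 11 called members and 3 others that did not pass, named because their values did not overlap. The 3 were Mrpl15 (-0.81, adjusted p = 0.0695, and -0.49 without PC61 replicate 4), Mrpl48 (-0.51, adjusted p = 0.0582) and Mrps31 (-0.46, adjusted p = 0.0632). Under 75th percentile scaling the 3 passed (adjusted p = 0.0475, 0.0400 and 0.0396), and under cyclic loess they did not (0.0843, 0.125 and 0.160). With an offset of 50, Mrpl48 and Mrps31 passed (adjusted p = 0.0418 and 0.0425). The other probes of Mrpl48 gave -0.62 and -0.48 (adjusted p = 0.0302 and 0.107 over all probes). Of the 24 members read by several probes, 22 had probes of 1 sign. The exceptions were Mrpl38, with -0.49 and 0.14, and Mrps7, with -0.19 and 0.12. The 7 probes of Mrpl15 ran from -0.81 to -0.19. Its highest PC61 value, 11.064, lay just under its lowest PBS value, 11.076.

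The proteins of the factor-binding stalk, where translation factors dock on the large subunit, did not pass the test. Mrpl12, the stalk protein itself, read 11.40, 11.66, 10.92 and 10.00 in PC61 tumours, against 11.69, 11.99, 11.89, 12.02 and 11.59 in PBS tumours. PC61 replicates 1, 3 and 4 lay below every PBS array, and PC61 replicate 2 lay above the lowest of them. The log2 fold change was -0.85 ± 0.30 (adjusted p = 0.0572). It was -0.51 without PC61 replicate 4 (adjusted p = 0.0977), and it passed under 75th percentile scaling (adjusted p = 0.0382). Mrpl10, which anchors the stalk, gave -0.35 ± 0.19 (adjusted p = 0.187), and Mrpl11, at its base, gave -0.35 ± 0.23 (adjusted p = 0.268).

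Proteins around the exit of the nascent-chain tunnel were also negative without passing. Mrpl22 gave -0.44 ± 0.29 (adjusted p = 0.272), Mrpl23 gave -0.34 ± 0.26 (adjusted p = 0.347) and Mrpl24 gave -0.26 ± 0.17 (adjusted p = 0.268). The values were -0.16 for Mrpl22, -0.13 for Mrpl23 and -0.23 for Mrpl24 without PC61 replicate 4. In the small subunit, Mrps12, at the decoding centre, read 11.90, 12.18, 11.31 and 10.48 in PC61 tumours, against 11.78, 11.59, 12.09, 11.74 and 11.77 in PBS tumours. The PC61 arrays lay on both sides of the PBS arrays, and the log2 fold change was -0.33 ± 0.31 (adjusted p = 0.442), or 0.00 without PC61 replicate 4.

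The 3 paralogues that descend from a single bacterial protein gave -0.49 ± 0.27 for Mrps18a (adjusted p = 0.197), -0.03 ± 0.18 for Mrps18b (adjusted p = 0.924) and -0.56 ± 0.30 for Mrps18c (adjusted p = 0.183). Mrps18a was -0.19 and Mrps18c -0.25 without PC61 replicate 4. Mrps18b was also among the 3 members nearest to 0, with Mrps34 (-0.03 ± 0.19, adjusted p = 0.919) and Mrpl57 (0.05 ± 0.25, adjusted p = 0.895). Mrpl57 and Mrpl4 (0.05 ± 0.26, adjusted p = 0.892) were the members with a positive log2 fold change. The sign turned under cyclic loess for Mrps18b (0.10), Mrps34 (0.10) and Mrpl57, and under 75th percentile scaling for Mrpl57 (-0.06) and Mrpl4 (-0.02). Mrpl57 had the lowest detection, on 3 of 4 PC61 arrays and 4 of 5 PBS arrays, and Mrpl39 was detected on 3 of 4 PC61 arrays and on all PBS arrays; the other 70 members were detected on all 9.

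A few members, picked after their values were seen, show how far PC61 replicate 4 set a mean. Mrps6, a bacterial-type small-subunit protein, read 11.09, 11.37, 10.67 and 8.97 in PC61 tumours, against 11.35, 11.45, 11.54, 11.18 and 11.40 in PBS tumours (-0.86 ± 0.40, adjusted p = 0.131). Mrpl52, mitochondria-specific, read 10.00, 10.35, 9.93 and 8.27 in PC61 tumours, against 9.87, 9.92, 10.37, 9.53 and 9.52 in PBS tumours (-0.21 ± 0.38). Without PC61 replicate 4 the log2 fold changes were -0.34 for Mrps6 and 0.25 for Mrpl52. Mrpl50 ran the other way, at 8.72, 8.70, 8.98 and 9.66 in PC61 tumours, against 9.23, 9.19, 9.12, 9.27 and 9.35 in PBS tumours, with PC61 replicate 4 as the highest array of all. Its log2 fold change was -0.22 over all arrays and -0.43 without PC61 replicate 4.

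The authors' deposited table, to whose probes the annotation was limited, held the 109 member probes with its own ratios of PC61 over PBS. At an adjusted p under 0.05 in that table, 17 of the 109 probes, in 13 genes, had a ratio below 1. No member probe had a ratio above 1 at that threshold. By the same rule 10.9% of all 17382 probes were lower. Ratios in the authors' deposited table ran from 0.402 to 1.109 over the member probes, with a median of 0.763.

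Other genes of mitochondrial translation were read from lists by function, beside the 11.2% of all genes called lower. Of the ribosomal subunits that carry other names, 3 of 5 were measured and 2 fell, none rose. Ptcd3, an RNA-binding protein of the small subunit, gave -0.96 ± 0.21 (adjusted p = 0.0140). Dap3, a GTP-binding small-subunit protein also known in apoptosis, gave -0.55 ± 0.18 (adjusted p = 0.0422), and Chchd1 gave -0.51 ± 0.22 (adjusted p = 0.104). Without PC61 replicate 4, Ptcd3 still passed and Dap3 did not (adjusted p = 0.0579).

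Of 21 assembly factors measured, 3 fell (14.3%, against 11.2% of all genes) and none rose, with a median of -0.27. Tfb1m, the methyltransferase that modifies the small ribosomal RNA, gave -0.95 ± 0.24 (adjusted p = 0.0190). Mtg1, a GTPase of large-subunit assembly, gave -0.59 ± 0.16 (adjusted p = 0.0227), and Noa1, a GTPase of small-subunit assembly, gave -0.62 ± 0.21 (adjusted p = 0.0497). Noa1 did not pass without PC61 replicate 4 (adjusted p = 0.0912) or with the mean of its probes (adjusted p = 0.101).

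Of 16 translation factors and messenger RNA partners measured, 4 fell (25%, against 11.2% of all genes) and none rose, with a median of -0.35. Mtrf1, a release-factor homologue, gave -0.96 ± 0.18 (adjusted p = 0.0122), and Gfm1, an elongation factor, gave -0.92 ± 0.20 (adjusted p = 0.0140). Lrpprc, which stabilises mitochondrial messenger RNAs, gave -0.75 ± 0.19 (adjusted p = 0.0192), and Pdf, the peptide deformylase, gave -0.71 ± 0.20 (adjusted p = 0.0260). Without PC61 replicate 4, 3 of the 16 passed, Mtrf1, Gfm1 and Lrpprc, where 7.72% of all genes were lower. Mtrf1 did not pass with the mean of its probes (-0.51, adjusted p = 0.0547). Of the 13 mitochondrial tRNA synthetases, which charge tRNAs with amino acids, none passed in limma. An unadjusted p under 0.05 was seen in 3 (23.1%), against 41.75% of all genes. Those 3 were Vars2 (-0.52), Mars2 (-0.68) and Aars2 (-0.53), and the list's median was -0.27. With array weights 4 of the 13 fell, where 22% of all genes were lower, and the median was -0.365.

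Of 14 genes of mitochondrial DNA transcription, replication and RNA processing, 2 fell (14.3%, against 11.2% of all genes) and none rose, with a median of -0.09. They were Tefm, a transcription elongation factor, at -0.58 (adjusted p = 0.0323), and Ssbp1, which binds single-stranded mitochondrial DNA, at -0.72 (adjusted p = 0.0491). Ssbp1 did not pass without PC61 replicate 4 (adjusted p = 0.103), and the list's median was then -0.20. Under cyclic loess that median was 0.007, and Dap3, Noa1 and Ssbp1 did not pass (adjusted p = 0.0767, 0.0809 and 0.0868). Of 8 nuclear regulators measured, 1 fell (12.5%) and none rose. It was Ppargc1b, a coactivator (-1.09 ± 0.27, adjusted p = 0.0191). Its relative Ppargc1a gave -1.94 ± 0.75 (adjusted p = 0.0738), and Nrf1 (-0.23), Gabpa (-0.22), Esrra (-0.55) and Myc (0.27) did not pass. Ppargc1a was -1.09 (adjusted p = 0.135) and Esrra -0.18 (adjusted p = 0.601) without PC61 replicate 4.

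The related genes differed in how far a call rested on single arrays. Ptcd3, Gfm1, Mtrf1 and Ppargc1b passed in all 9 fits that left out an array. Tfb1m and Lrpprc passed in 8, failing without PC61 replicate 3 (adjusted p = 0.0600 for Tfb1m and 0.0581 for Lrpprc), and Mtg1 in 7, failing without PC61 replicates 1 or 3. Tefm passed in 4, failing without PC61 replicates 1 or 3 or PBS replicates 2, 4 or 5. Pdf passed in 3, failing without those arrays or PC61 replicate 4. Dap3 and Ssbp1 passed in 2, Dap3 without PC61 replicate 2 or PBS replicate 3 and Ssbp1 without PC61 replicates 1 or 2, and Noa1 passed in 1, that without PC61 replicate 2.

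Cytosolic ribosomal proteins and oxidative phosphorylation subunits were set beside the members by symbol pattern, and differences between the lists were not tested. Of 47 cytosolic ribosomal proteins, 1 fell, Rpl7a (-0.70), and none rose, and the median was -0.04. This direction depended on the scaling, since under cyclic loess the median was 0.18, none fell, 1 rose and Rpl7a did not pass (adjusted p = 0.0651), while under 75th percentile scaling the median was -0.19. Rpl7a also failed without PC61 replicates 1 or 3 or PBS replicate 5 (highest adjusted p = 0.0652). Of 73 oxidative phosphorylation subunits, 11 fell (15.1%) and 3 rose, with a median of -0.55, against 11.2% of all genes lower and 15.4% higher. Rpl7a and these 3 are named after their values were seen. The 3 that rose were Cox6a2 (2.04), Cox8b (1.29) and Cox4i2 (1.12), of which the first and second are muscle isoforms of cytochrome oxidase subunits. Cox8b passed in 2 of the 9 fits that left out an array, those without PC61 replicate 4 or PBS replicate 2, and the other two in all 9. PC61 replicate 4 was the lowest array for 63 of the 73, against 28.2% of all genes. Without it 4 fell and 3 rose, with a median of -0.22, where 7.72% of all genes were lower.

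Some lists of cell type markers held genes that differed between the groups, and others held none. Summed levels separated the groups for the skeletal muscle and proliferation lists only. Over all genes, 15.4% were higher and 11.2% lower in PC61 tumours. All 13 skeletal muscle markers rose, with summed log2 levels of 15.06 to 16.45 in PC61 tumours, against 12.92 to 14.26 in PBS tumours. Of 9 keratinocyte markers measured, 7 rose, with summed levels of 15.81 to 17.08 in PC61 tumours, against 13.99 to 15.89 in PBS tumours. Of 10 melanocyte markers, 3 fell, Mc1r, Mitf and Tyr, with summed levels of 11.98 to 16.24 in PC61 tumours, against 16.05 to 16.65 in PBS tumours.

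Of 10 proliferation genes measured, 6 fell, with summed levels of 11.72 to 13.02 in PC61 tumours, against 13.18 to 13.34 in PBS tumours. Of 8 fibroblast markers 3 rose, with summed levels of 14.14 to 15.09 in PC61 tumours, against 13.02 to 14.18 in PBS tumours. Of 5 adipocyte markers measured 1 rose, Lep, with summed levels of 11.88 to 12.98 in PC61 tumours, against 9.54 to 12.54 in PBS tumours. None of 7 macrophage markers passed, at 12.13 to 13.88 in PC61 tumours and 12.89 to 13.24 in PBS tumours, and none of 5 T cell markers passed, at 8.75 to 10.51 in PC61 tumours and 9.19 to 10.16 in PBS tumours. The part of these differences in the members' result was not tested.

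**Figure D5:**
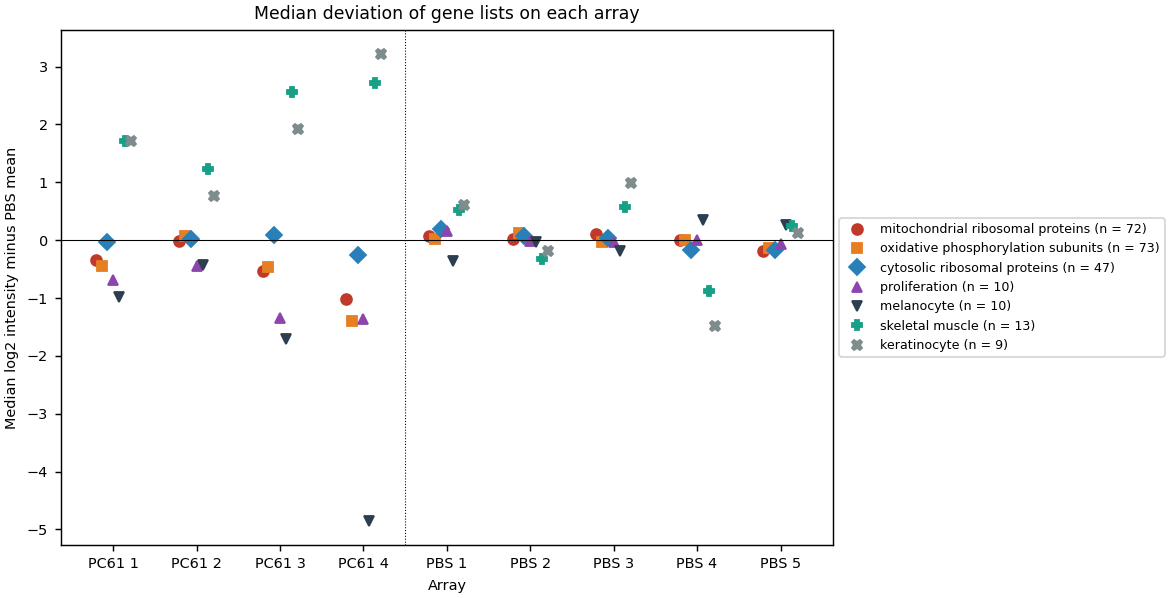
Median deviation from the PBS mean (log2) of 7 gene lists on each array, PC61 arrays left of PBS arrays. The mitochondrial ribosomal proteins reach -1.01 and the oxidative phosphorylation subunits -1.40 on PC61 replicate 4, where the melanocyte markers reach -4.86, while the cytosolic ribosomal proteins stay between -0.25 and 0.19 on all arrays.

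Promoter sequence was available for 64 of the 72 members, and Mrpl13, Mrpl15, Mrpl38, Mrpl4, Mrpl54, Mrps28, Mrps34 and Mrps35 are named only. The ETS motif was found in 26 of the 64 (40.6%), against 19.6% of the 8078 genes tested that had promoter sequence. The NRF1 motif was found in 11 members (17.2%), against 11.0% of those 8078 genes, and the YY1 motif in 11 members (17.2%), against 5.15%. The E-box CACGTG, a motif of MYC and its relatives, was found in 5 members (7.81%), against 11.8%.

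The log2 fold changes of members with and without a motif are given as a description, with no test. The medians were -0.53 with NRF1 and -0.44 without it, -0.38 with ETS and -0.54 without it, and -0.49 with YY1 and -0.44 without it. With the E-box the median was -0.56, and without it -0.44. Of the 11 members with the YY1 motif 3 passed the test, against 7 of 53 without it. For NRF1 the counts were 1 of 11 with and 9 of 53 without. For ETS they were 1 of 26 with and 9 of 38 without, and for the E-box 0 of 5 with and 10 of 59 without. A match in these letters does not show binding.

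A neighbouring gene on the opposite strand, transcribed away from the member and starting within 300 bases of it, was found for 18 of the 64 members (28.1%). Of the 8078 genes tested that had promoter sequence, 9.74% had such a neighbour. Mrpl46 and Mrps11 are transcribed away from each other with starts 42 bases apart, and the stretch between them, at chr7:78783090-78783130, is shown because both are members.
Mrpl46-Mrps11: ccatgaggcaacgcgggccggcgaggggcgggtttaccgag
Mrpl46 fell (-0.59, adjusted p = 0.0331), and Mrps11 gave -0.78 ± 0.39 (adjusted p = 0.147), or -0.35 without PC61 replicate 4. Of the 14 neighbours measured, 11 were negative, against 53.1% of all genes, and their median was -0.33. The 11 include Mrpl46 and Mrps11, which are members themselves. These counts, and that of the neighbours that fell, therefore repeat in part the members' own values. Among the 14, 3 fell, against 11.2% of all genes. These were Mrpl46, Klc4 (-0.99, adjusted p = 0.0472), which neighbours Mrpl2 (-0.77), and Ska3 (-1.02, adjusted p = 0.0139), which neighbours Mrpl57 (0.05), named after their values were seen. Klc4 did not pass without PC61 replicate 4 (adjusted p = 0.0877).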

How the data were processed

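Total RNA was labelled with biotin and read on Illumina bead arrays, per the labels. The authors deposited raw probe intensities, a detection score per probe and array, and their quantile-normalized intensities with a ratio of PC61 over PBS, a test score and p-values, per the file headers. The sources used here do not name a scanner or its software. Recomputing quantile normalization from the raw intensities gave the deposited values, within 2.74e-09 percent.

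From the raw table, 3 of 45273 probes with a detection p outside 0 to 1 were left out. Intensities were corrected with normexp (offset 16), quantile normalized and taken to log2 in limma 3.58.1 under R 4.3.3. A probe was used if its detection p was below 0.05 on 4 or more arrays, which left 20190, and 14906 of them had 1 gene symbol in the platform annotation, updated through RefSeq, while 5284 had none or several. The probe with the highest mean stood for each gene. The 4 PC61 and 5 PBS arrays were compared with lmFit and eBayes over 10096 genes, two-sided, with Benjamini-Hochberg adjustment and a threshold of 0.05. The number of arrays limits the precision. The pipeline was tested on simulated data. Promoters came from RefSeq (GRCm38.p6).

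The members and lists were chosen with earlier results of these data known. Genes given with values were the called members, the stalk, tunnel-exit, decoding-centre and Mrps18 members, and the 3 nearest to 0. Up to 3 of each related list with the smallest p were also given. Pdf, Nrf1, Gabpa and Myc were given beyond that rule, and Trmt10c, within it, was not. Other additions are described where they appear. Alternatives covered background correction, offset, normalization, detection filter, probe choice, the authors' values, array weights, a replicate block and leaving out each array.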

Additional observations from a re-analysis of the deposited data

Results flagged for a closer look

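In 124 groups of arrays, the highest or lowest array was compared with the others by Dixon's test. Each group was 1 gene, or the median of 1 gene list, in the PC61 or the PBS arrays. The test flags about 1 in 20 groups by chance, and 2 were flagged. Mrps11 read 10.27 on PBS replicate 3, where the nearest PBS array read 9.69, a gap of 0.745 of the range of the PBS arrays. Mtg1 read 8.25 on PBS replicate 5, where the nearest PBS array read 8.46, a gap of 0.775 of the range.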

How the results depend on the processing

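Of the 72 members, 12 were lower over all arrays. The count was 7 under cyclic loess (9.72%, against 8.5% of all genes lower), 19 under 75th percentile scaling (26.4%, against 13.5%) and 24 with array weights (33.3%, against 22%), and it ran from 1 to 30 when each array was left out in turn. No member was higher in any of these settings. Over all genes in either direction, 2679 passed, 4497 with array weights and between 753 and 3754 when an array was left out. The members' median log2 fold change stayed negative in every setting run, between -0.60 and -0.30. Cyclic loess put the median of all genes at 0.06, against -0.05, and the members' median less that of all genes was then -0.38, against -0.40. Array weights gave 5.42 to PC61 replicate 1 and 0.194 to PC61 replicate 4.

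The labels do not say whether the replicate numbers pair the arrays, and so few correlations cannot decide it. Same-numbered deviations correlated at -0.24, 0.01, 0.00 and -0.33, and no array correlated best with its own number. The replicate block was fitted without PBS replicate 5, which has no PC61 array of its number. In that fit 0 members and 0 of all genes passed in limma, and the lowest adjusted p was 0.105. An unadjusted p under 0.05, in either direction, was seen for 22 members and 3049 genes, and the members' median was -0.50.

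With array weights, 12 members turned sign and 14 were positive, and without PC61 replicate 4, 8 turned; none of these was called. Values that turned are given for the members named in the text. Under cyclic loess Mrps18b was 0.10, Mrps34 0.10 and Mrpl57 -0.005. Under 75th percentile scaling Mrpl57 was -0.060 and Mrpl4 -0.019. With array weights Mrps12 was 0.061, Mrps34 0.045 and Mrpl52 0.162, and with the replicate block Mrpl4 was -0.048. When each array was left out in turn, Mrpl4 ran from -0.091 to 0.23, Mrpl57 from -0.076 to 0.27, Mrps12 from -0.57 to 0.001, Mrps18b from -0.11 to 0.062, Mrps34 from -0.11 to 0.080 and Mrpl52 from -0.44 to 0.25. The cause was not tested. Signal over background limits Mrpl57 and Mrpl39, detected on 7 and 8 of the 9 arrays.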
